A study of Mus musculus with 12 samples.

Results

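Coagulation on the vessel wall was examined through 9 genes that start clotting, restrain it or dissolve clots: F3, Tfpi, Thbd, Procr, Pros1, F2r, Plat, Plau and Plaur. They were taken by gene symbol from the platform annotation, out of 18193 genes that had a probe set of 1 symbol on the array. A probe set is a group of short oligonucleotides that measures one transcript region. Where a gene had several, the probe set with the highest mean over the 12 arrays was used and the others served as a check. All 9 genes had a probe set, and 8 of them were bright enough to be tested. F3 was not. The level of each probe set is given as an array signal on a linear scale, and signals of different genes are not compared with each other.

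Blood coagulation starts when tissue factor, encoded by F3, meets clotting factors of the plasma, and resting endothelium normally carries little of it. Endothelium holds the cascade in check with tissue factor pathway inhibitor (Tfpi) and with the protein C system, in which thrombomodulin (Thbd) captures thrombin, the endothelial protein C receptor (Procr) presents protein C and protein S (Pros1) acts as the cofactor. Fibrin that has formed is removed by plasmin, which the activators Plat and Plau release from plasminogen. In human endothelial cell cultures, tumour necrosis factor (TNF) is widely known to induce tissue factor and to lower thrombomodulin.

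The samples were cultured endothelial cells from wild-type newborn mice, grown in DMEM with FCS, glutamine, penicillin and streptomycin, with 1 array per sample and 4 arrays per group. Controls were mock-transfected. The second group stably carried a mutant transmembrane murine TNFalpha that cannot be cleaved (tmTNF), as a model of lasting activation. The third group received soluble TNFalpha at 20 ng/ml for 4 h, as a model of brief activation. The labels name no promoter for the transgene. They do not say whether transfected cells were 1 clone or a pool, whether cells given soluble TNF had been mock-transfected, or whether replicates were separate cultures or animals. A p-value here thus reflects only how these samples varied, and the labels do not say what part of that variation is technical. The number of arrays limits the precision.

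The samples within a group were unlike each other in cell type markers, and this touches most values below. Probe sets with a signal of 100 or more numbered 18401 to 19174 on tmTNF arrays, above every control (17889 to 18359) and soluble TNF array (17652 to 18216). The Actb 3' to 5' ratio, a sign of RNA quality, was 1.101 to 1.156 after soluble TNF, below every control (1.185 to 1.291), and 1.119 to 1.29 in tmTNF cells. The part of these quality values in the results was not tested. All 14 of 14 endothelial identity markers, Pecam1 and Cdh5 among them, were bright enough to be tested. Their mean log2 value was 9.07 to 10.03 on control replicate 3 and tmTNF replicates 2 and 4 and 10.5 to 12.52 on the other 9 arrays. The same 3 arrays had the highest mean over the 2 of 7 mesothelial and epithelial markers that could be tested, Krt19 and Msln (11.4 to 12.38, against 6.08 to 11.05). The mean over 5 of 11 fibroblast and mural markers was 9.25 to 10.27 on control replicates 3 and 4 and soluble TNF replicates 1 and 4, and 6.02 to 7.1 on the other 8 arrays. That split rests on the collagen genes Col1a1, Col1a2 and Col3a1. Acta2, a tested marker of the same list, did not follow it. Its signals were 98.3 to 1043 in controls, 101.2 to 238.3 in tmTNF cells and 736.2 to 1669 after soluble TNF, so the 2 exposures do not overlap. Other fibroblast and mural markers went another way: Dcn gave 3277 and 7271 on tmTNF replicates 2 and 4 and 16.6 to 27.7 on the 4 collagen-high arrays, Pdgfra was highest on the same tmTNF arrays (699 and 943.7), and Pdgfrb reached 1337 on tmTNF replicate 3. Of the leukocyte markers 4 of 8 could be tested (Cd68, Csf1r, Cd14 and Lyz2), and Ptprc was under a signal of 100 on every array. Their mean log2 value was 8.04 to 9.69 in tmTNF cells and 7.1 to 7.57 after soluble TNF, with no overlap, and 6.65 to 8.95 in controls. Their summed signal was 5033 to 7461, 532 to 1030 and 717 to 18701 in the same order, with Cd68 at 18210 on control replicate 1 and Cd14 at 5129 and 4763 on tmTNF replicates 2 and 4. Of the platelet and megakaryocyte markers 2 of 4 could be tested, with a summed signal of 734 to 4868 in controls, 760 to 3372 in tmTNF cells and 893 to 5115 after soluble TNF. None of 3 hepatocyte markers could be tested. Soluble TNF replicates 1 and 4 correlated at r = 0.983 across the tested genes, and the other pairs at 0.962 or less. Genes are not independent of each other, and the labels do not say whether these 2 samples share a culture. The Y-linked genes Eif2s3y, Kdm5d and Uty had signals of 218.8 to 1683 in tmTNF cells and at most 39.5 in both other groups, so that sex of the cells and tmTNF cannot be told apart.

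No coagulation or fibrinolysis gene was called in any comparison, where called means an adjusted p under 0.05 in a limma fit of all 3 groups with Benjamini-Hochberg adjustment over 10269 genes. The count was 0 of 8 for tmTNF minus control, against 0.195% of all genes tested. It was 0 of 8 for soluble TNF minus control, against 0.039%, and 0 of 8 for tmTNF minus soluble TNF, against 1.22%. At an unadjusted p under 0.05 the counts were 1 of 8 against a background of 7.56%, 2 of 8 against 12.7% and 1 of 8 against 19.9%, in the same order. The genes were Pros1 in the first comparison, Pros1 and Tfpi in the second and Tfpi in the third. Each of these shares rests on 1 or 2 genes. The median log2 fold change of the 8 genes was -0.13, -0.21 and -0.01, against 0.03, -0.05 and 0.08 over all genes. With 4 arrays per group these comparisons have wide intervals, and a p that misses the threshold does not show equal levels.

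**Figure D1:**
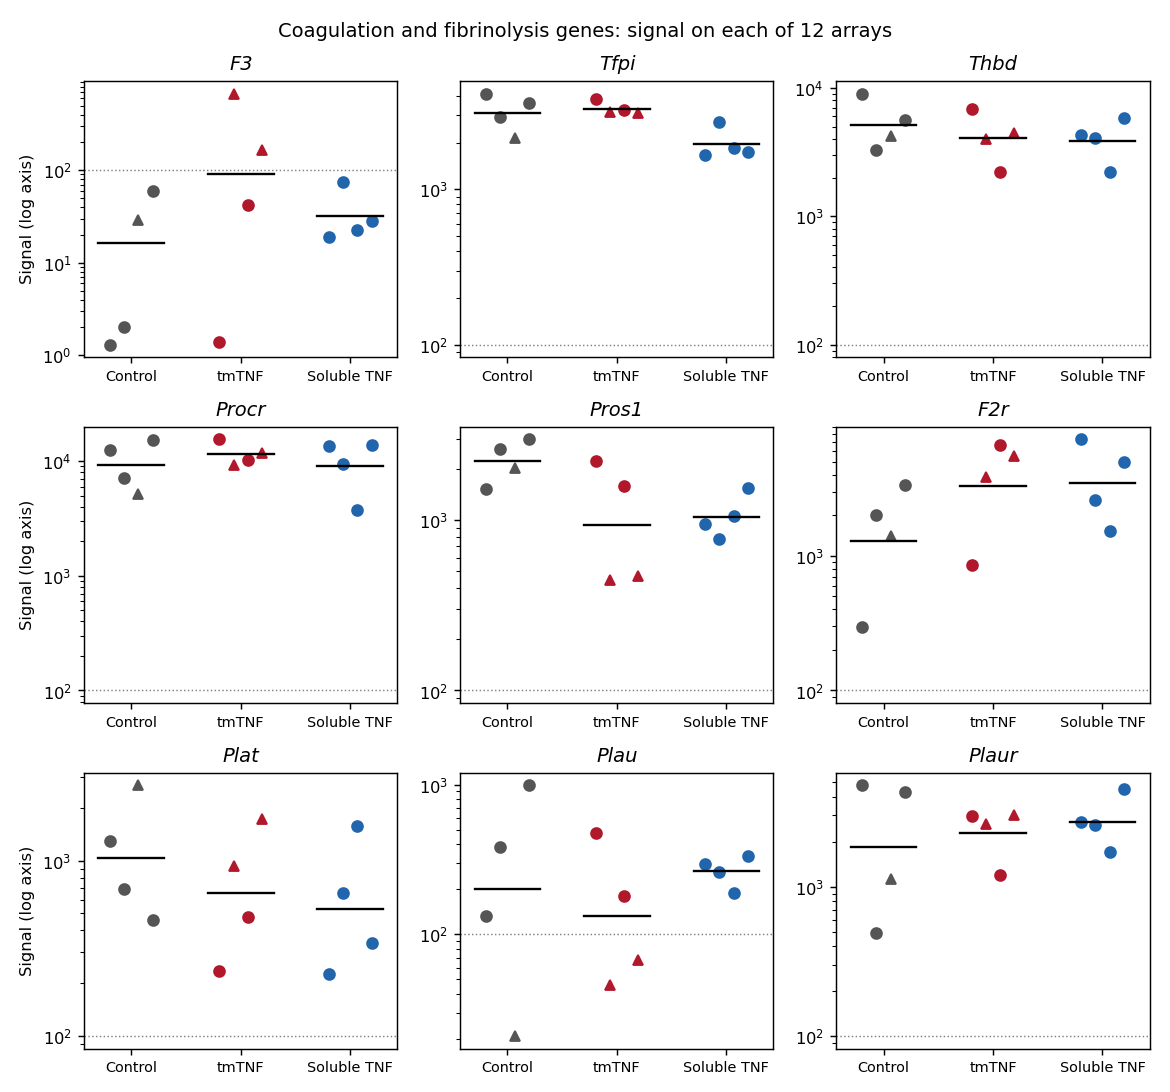
Signal of each of the 9 genes on each of 12 arrays (log axis), by group; points are arrays, bars are the group means on the log2(signal + 16) scale, triangles mark the 3 arrays with the lowest endothelial marker mean and the dotted line is a signal of 100. Tfpi in tmTNF cells lies above all 4 soluble TNF arrays, and F3 lies under 100 on 10 of 12 arrays.

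F3, the tissue factor gene that starts coagulation, was dim. Its signals were 1.3, 2, 29.1 and 60.1 on control replicates 1 to 4. They were 1.4, 673.8, 42.5 and 164.5 in tmTNF cells, and 19.2, 74.5, 22.8 and 27.9 in cells given soluble TNF for 4 h. Only tmTNF replicates 2 and 4 exceeded 100, and tmTNF replicate 1 was as low as the lowest control, so the groups overlap throughout. F3 did not reach 100 on 4 arrays and was therefore not tested. In a limma fit without that filter, tmTNF minus control gave a log2 fold change of 1.72 ± 0.908 (SE) with an adjusted p of 0.773. Soluble TNF minus control gave 0.59 (adjusted p 0.889, limma) and tmTNF minus soluble TNF 1.14 (adjusted p 0.607, limma). The tmTNF arrays above 100 are also those with Krt19 and Msln markers high and endothelial markers low. The third array of that kind, control replicate 3, had an F3 signal of 29.1. The part of these markers in the F3 values was not tested.

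The promoter of F3 differed from those of 2 anticoagulant genes in its matches to 3 short sequence motifs. Promoters of 300 bases, from 250 before to 50 after the annotated start, were taken from RefSeq (GRCm38.p6), which gave 7 entries for 6 of the 9 genes. Both strands were searched for GGNNTTTCC (an NF-kB motif), TGANTCA (an AP-1 motif) and GGGCGG (a GC box). These occur in 5.82%, 7.81% and 35.7% of all 32851 promoters of that length. F3 was the only one of the 6 genes with a match to this NF-kB pattern, at position -112 from the start. Other forms of NF-kB site were not searched, so a gene without a match may still hold one. F3 also had AP-1 matches at -146 and -135 and GC boxes at -89, -58 and -24. The 3 kinds of match do not overlap each other in F3. Neither of the 2 annotated starts of Tfpi had an NF-kB or AP-1 match, nor had Pros1, which had 5 GC boxes. Procr had an AP-1 match at -154, Plaur at -69 and F2r at -204. The windows from 250 to 51 bases before the start are shown 5′ to 3′ on the gene's strand for F3, for the upstream start of Tfpi and for Pros1, with matches on either strand in capitals. They lie at chr3:121723287-121723486 (plus strand), chr2:84476810-84477009 (minus strand) and chr16:62854057-62854256 (plus strand).
F3: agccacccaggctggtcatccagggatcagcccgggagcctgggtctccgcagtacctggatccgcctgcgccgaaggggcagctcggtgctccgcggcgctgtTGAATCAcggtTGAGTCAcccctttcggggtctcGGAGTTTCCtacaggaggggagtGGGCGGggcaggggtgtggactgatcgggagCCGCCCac
Tfpi: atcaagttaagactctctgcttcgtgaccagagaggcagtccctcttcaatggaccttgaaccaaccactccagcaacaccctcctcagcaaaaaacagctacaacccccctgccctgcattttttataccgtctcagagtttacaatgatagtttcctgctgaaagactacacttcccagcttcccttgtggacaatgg
Pros1: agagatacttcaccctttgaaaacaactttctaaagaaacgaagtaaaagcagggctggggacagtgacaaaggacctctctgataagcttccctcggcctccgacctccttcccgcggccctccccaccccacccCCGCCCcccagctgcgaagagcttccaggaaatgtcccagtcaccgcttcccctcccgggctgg
The capitals in F3 are, from left to right, both AP-1 matches, the NF-kB match and 2 GC boxes. The Tfpi window holds no match, and the Pros1 window holds 1 GC box on the opposite strand. A match is a description of letters and no measure of binding, which was not assayed.

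Tfpi, the inhibitor of the tissue factor complex, was the gene with the clearest difference between the 2 exposures. Its signals were 4145, 2924, 2129 and 3621 on control replicates 1 to 4. In tmTNF cells they were 3802, 3131, 3231 and 3085, and after soluble TNF 1679, 2729, 1860.3 and 1750. Every tmTNF array lay above every soluble TNF array. Controls ran from inside the soluble TNF range, with replicate 3, to above the tmTNF range, with replicate 1. No other of the 8 genes separated the 2 exposures, so the count was 1 of 8, where 16.1% of all genes separated them. Tfpi was 1.67-fold higher in tmTNF than in soluble TNF cells, a log2 difference of 0.74 ± 0.23 (SE, 95% interval 0.24 to 1.25). The limma p was 0.00721 and the adjusted p 0.121, which does not pass. The mean over the 4 tested leukocyte markers separates the same groups, although each of these markers alone overlaps. Acta2, of the fibroblast and mural markers, separates them by itself, lower in tmTNF. The part of these markers in the Tfpi difference was not tested. Against controls, Tfpi in soluble TNF cells was 1.58-fold lower (log2 -0.66 ± 0.23, limma p 0.0144, adjusted p 0.311). In tmTNF cells it differed by 0.09 ± 0.23 (adjusted p 0.964, limma).

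Tfpi varied little among replicates. Its residual SD within groups was 0.31 on the log2 scale, at percentile 23.9 of all genes tested, and the median gene had 0.45. With estimated array weights Tfpi alone of the 8 genes was called between the 2 exposures (log2 0.84, adjusted p 0.0221, limma). Of all 10269 genes, 713 higher and 463 lower were called in that fit, against 98 and 27 in the main fit. That fit gave soluble TNF replicates 1 and 4, the pair that correlated at 0.983, weights of 3.52 and 3.97, and each other array at most 1.09. With that pair averaged and counted once, the difference was 0.68 (adjusted p 0.256, limma). Without the 4 collagen-high arrays it was 0.55 (adjusted p 0.381, limma), and without the 3 arrays of lowest endothelial markers 0.83 (adjusted p 0.122, limma). Over the 26 alternatives on the main probe set or the mean of probe sets, the adjusted p ran from 0.0221 to 0.381 and the difference from 0.51 to 0.90. The other probe sets, described next, went down to 0.15.

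The 4 probe sets for Tfpi fell into 2 pairs. The probe set 1451791_at followed the main one, 1451790_a_at, with r = 0.96 over the 12 arrays. It too put every tmTNF array (2078 to 2836) above every soluble TNF array (1127 to 1814), with a log2 difference of 0.89 ± 0.274 (adjusted p 0.127, limma over all probe sets that pass the filter). The probe sets 1438530_at and 1452432_at followed each other with r = 0.89 and the main one with 0.48 and 0.64. On 1438530_at the difference between the exposures was 0.15 ± 0.258 (adjusted p 0.785, limma) and on 1452432_at 0.48 ± 0.281 (adjusted p 0.37, limma), with overlapping groups on both. On 1452432_at soluble TNF arrays (1133 to 2059) lay below all controls (2161 to 3296). That last difference was -0.81 ± 0.281, with a limma p of 0.0132 and an adjusted p of 0.295. The sign of tmTNF minus control was positive on the first pair (0.09 and 0.27) and negative on the second (-0.24 and -0.33). Soluble TNF minus control was negative on all 4 (-0.39 to -0.81). The files do not say which transcript forms each probe set reads.

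**Figure D2:**
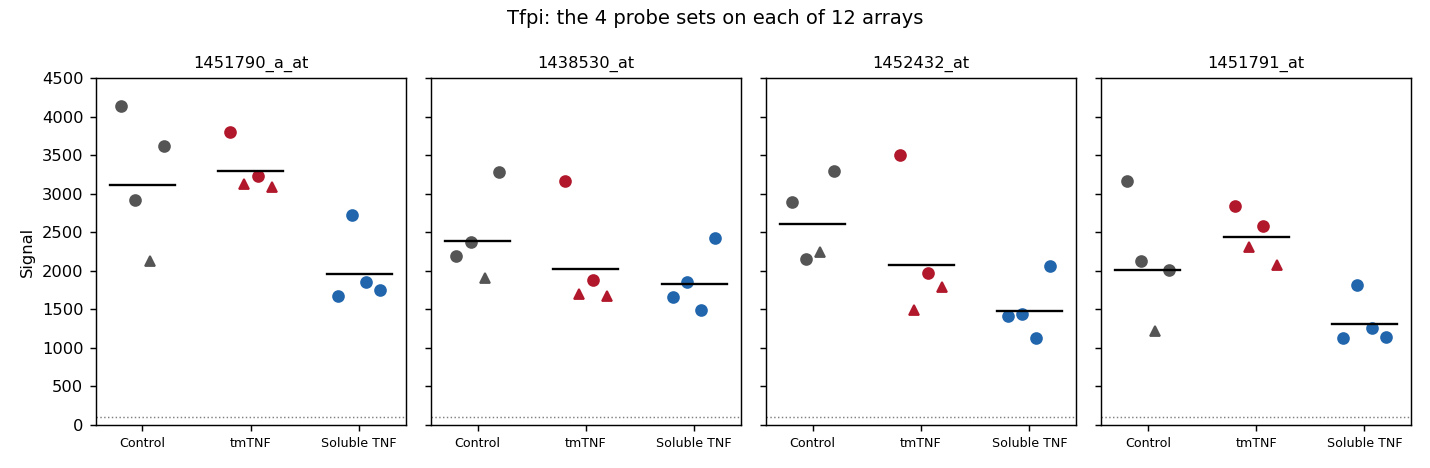
Tfpi signal (linear axis from 0) on each of 12 arrays for each of its 4 probe sets, by group; points are arrays, bars are the means on the log2(signal + 16) scale and triangles mark the 3 arrays with the lowest endothelial marker mean. On 1451790_a_at and 1451791_at all tmTNF arrays lie above all soluble TNF arrays, and on the other 2 probe sets the groups overlap.

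Thbd, the thrombomodulin gene, did not differ detectably between groups. Its signals were 9045, 3273, 4232 and 5680.2 in controls, 6899, 3978, 2220.4 and 4438 in tmTNF cells, and 4340, 4094, 2196 and 5868 after soluble TNF. The highest value was a control and the 2 lowest came from tmTNF replicate 3 and soluble TNF replicate 3, but all 3 groups overlap. The log2 fold change was -0.35 ± 0.402 for tmTNF and -0.41 ± 0.402 for soluble TNF against controls, with adjusted p of 0.92 and 0.699 (limma). The 95% intervals, -1.22 to 0.53 and -1.28 to 0.47, include a halving as well as no change. Between the exposures the difference was 0.06 ± 0.402 (adjusted p 0.951, limma), and its sign turned to -0.17 when arrays were scaled to the same median.

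Procr, the receptor that presents protein C to the thrombin and thrombomodulin complex, was bright on all arrays. Its signals were 12444, 7115, 5203 and 15393 in controls. They were 15493, 9225, 10211 and 11871 in tmTNF cells and 13542, 9480.1, 3753 and 13943 after soluble TNF. The tmTNF arrays were the most alike, within 1.68-fold of each other, and soluble TNF arrays spanned 3.71-fold, with replicate 3 the lowest of all 12. The log2 fold changes were 0.32 ± 0.427 for tmTNF minus control, -0.02 for soluble TNF minus control and 0.34 between the exposures (adjusted p 0.934, 0.992 and 0.691, limma). Procr and Thbd varied together over the 12 arrays (r = 0.67, rho = 0.8), given as a description over arrays that share the 3 groups.

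Pros1, which encodes the cofactor of activated protein C, was lower on average under both exposures without being called in either. The control signals were 1512, 2619, 2019 and 2974. The tmTNF arrays gave 2207, 446.1, 1594 and 468.3, and the soluble TNF arrays 949.8, 775.3, 1056 and 1548. The tmTNF group split, with replicates 1 and 3 in the control range and replicates 2 and 4 below every other array. Among soluble TNF arrays only replicate 4 reached above the lowest control. The log2 fold change was -1.23 ± 0.484 for tmTNF (limma p 0.0253, adjusted p 0.595) and -1.06 ± 0.484 for soluble TNF (limma p 0.0479, adjusted p 0.391). These comparisons share the control arrays. Between the exposures it was -0.17 ± 0.484 (adjusted p 0.875, limma). Over 26 alternatives the adjusted p for tmTNF minus control ran from 0.149 to 0.975.

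The 2 low tmTNF arrays for Pros1 are the 2 with low endothelial markers. Without the 3 arrays of that kind, Pros1 for tmTNF minus control was -0.28 (adjusted p 0.967), and tmTNF minus soluble TNF turned to 0.83 (adjusted p 0.214, limma). Soluble TNF minus control was -1.11 without them (adjusted p 0.187, limma). Of the tmTNF arrays that fit keeps only replicates 1 and 3. It leaves out the 2 lowest Pros1 signals, so higher tmTNF values follow from the choice of arrays. Control replicate 3, the third such array, had a Pros1 signal of 2019, in the middle of the controls. Whether cell type content sets the Pros1 level of these arrays was not tested. In a bulk sample fewer cells of a type and less RNA per cell cannot be told apart.

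F2r, the gene of the thrombin receptor PAR-1, was spread widely within each group. Its signals were 295.7, 1998, 1403 and 3349 in controls. They were 847.9, 3825, 6624 and 5493 in tmTNF cells and 7329, 2579, 1529 and 5009 after soluble TNF. Means were higher under both exposures, with 3 of 4 tmTNF arrays above the highest control and 2 of 4 soluble TNF arrays above it. The log2 fold change was 1.34 ± 0.795 for tmTNF (95% interval -0.40 to 3.07, adjusted p 0.787) and 1.41 ± 0.795 for soluble TNF (-0.33 to 3.14, adjusted p 0.485, limma). Control arrays spanned 11.3-fold, control replicate 1 being the lowest of all 12 arrays. Without that array the values were 0.64 for tmTNF (adjusted p 0.832) and 0.71 for soluble TNF (adjusted p 0.78, limma). Without the 4 collagen-high arrays tmTNF minus control was 2.07 (adjusted p 0.613, limma). The second F2r probe set followed the first with r = 0.99 and gave 1.53 and 1.44 for the same comparisons. Between the exposures F2r differed by -0.07 ± 0.795 (adjusted p 0.97, limma).

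**Figure D3:**
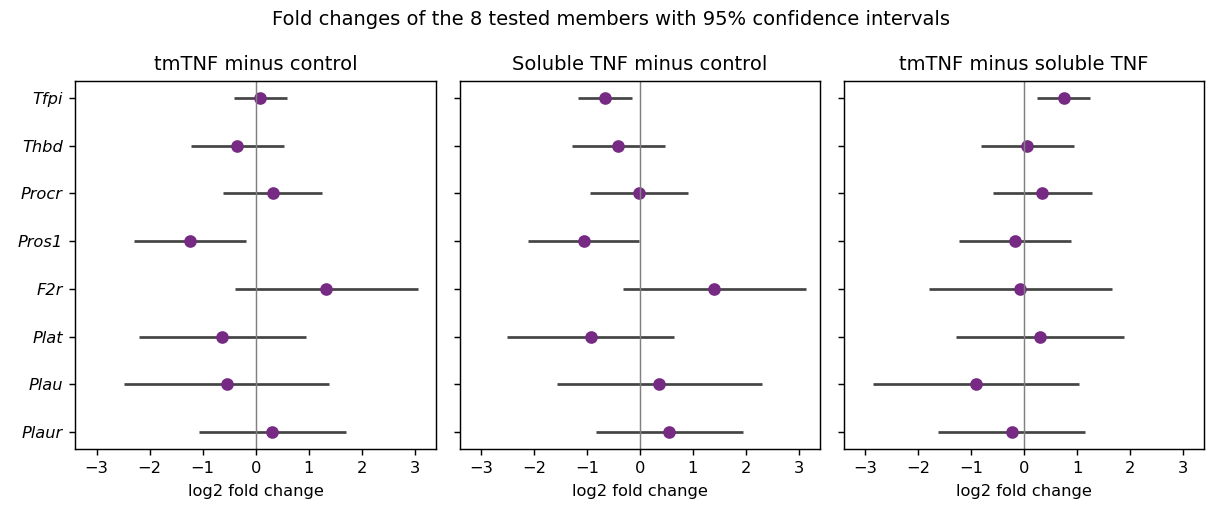
Log2 fold change (points) with 95% confidence intervals (lines) of the 8 tested genes in the 3 comparisons, from the limma fit. The Tfpi intervals are the shortest, those of Pros1 exclude 0 for both exposures against controls before adjustment, and those of Plau, F2r and Plat span several log2 units.

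Plat, which encodes tissue-type plasminogen activator, the form endothelium releases into blood, gave no group difference beyond its spread. The control signals were 1295, 691, 2686 and 457.6. The tmTNF signals were 236.4, 935.5, 474.6 and 1733, and the soluble TNF signals 225.2, 651.7, 1567 and 340. All 3 groups overlap, and each spans at least 5.87-fold. The log2 fold changes were -0.63 ± 0.724 for tmTNF minus control, -0.93 for soluble TNF minus control and 0.30 between the exposures (adjusted p 0.92, 0.615 and 0.852, limma). The second Plat probe set stayed under 50 on every array and was not used.

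Plau, the urokinase-type activator that works at cell surfaces, was the most variable of the 8 genes, with a residual SD of 1.42 on the log2 scale (percentile 94.7 of all genes). Control signals were 133.1, 385.1, 20.9 and 989.7, tmTNF signals 472, 45.9, 180.4 and 67.3, and soluble TNF signals 294.5, 260.4, 189.5 and 333.6. Soluble TNF arrays lay close together, within 1.76-fold, while controls spanned 47.4-fold. The 3 lowest values, 20.9 to 67.3, came from the 3 arrays with the lowest endothelial markers, and the other 9 arrays gave 133.1 to 989.7. The second Plau probe set gave 48.6 to 58 and 51.3 on those arrays and followed the first with r = 0.96. The part of cell content in this pattern was not tested. The log2 fold changes of Plau were -0.54 ± 0.888 for tmTNF minus control, 0.37 for soluble TNF minus control and -0.91 between the exposures (adjusted p 0.946, 0.893 and 0.601, limma). Without the 3 arrays, the latter 2 turned to -0.48 and 0.14, a direction that follows from leaving out the 3 lowest Plau signals.

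Plaur, the receptor that holds urokinase at the cell surface, also overlapped across groups. Its signals were 4770.1, 493.8, 1121 and 4296 in controls, 2950, 2626, 1198 and 3015 in tmTNF cells, and 2723, 2594, 1710.3 and 4518 after soluble TNF. Controls held both the highest and the lowest value, and replicate 3 was the lowest of its group in both exposed groups. The log2 fold changes were 0.32 ± 0.64 for tmTNF minus control, 0.56 for soluble TNF minus control and -0.24 between the exposures (adjusted p 0.955, 0.751 and 0.865, limma). Plaur varied over the 12 arrays with Thbd (r = 0.68) and Procr (r = 0.64), both of which encode surface proteins of the anticoagulant system.

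**Figure D4:**
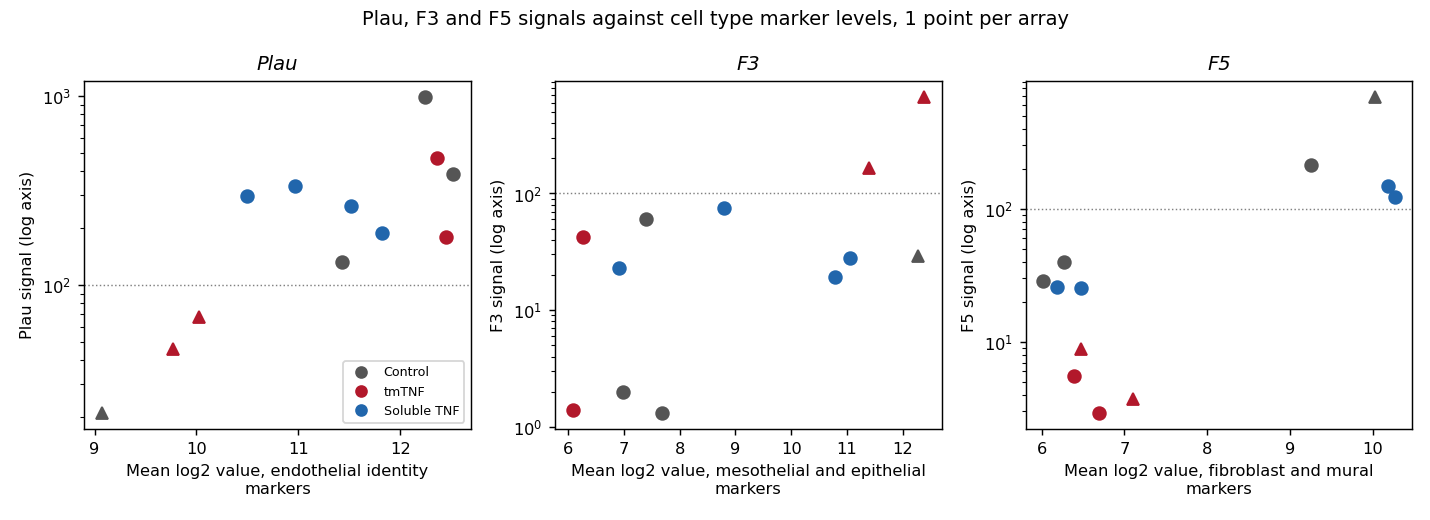
Signals of Plau, F3 and F5 (log axes) against the mean log2 value of an array's endothelial, mesothelial and epithelial, or fibroblast and mural markers; points are the 12 arrays, coloured by group, triangles mark the 3 arrays with the lowest endothelial marker mean and the dotted line is a signal of 100. The 3 triangles have the lowest Plau signals, and 2 of them are the only arrays with F3 above 100. The 4 arrays of highest fibroblast and mural marker mean, a split that rests on collagen genes, hold the 4 highest F5 signals.

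Correlations among the 8 genes over the 12 arrays were computed for 28 pairs and are given with no test, because all points share the arrays and groups. Thbd, Procr and Plaur varied together, with rho of 0.84 for Thbd and Plaur, 0.8 for Thbd and Procr and 0.76 for Procr and Plaur. Plat ran against Plau (r = -0.75, rho = -0.76) and against Procr (r = -0.68, rho = -0.73). Arrays with high Plau therefore tended to have low Plat. Spread within groups ran from 0.31 for Tfpi and 0.63 for Thbd to 1.29 for F2r and 1.42 for Plau, in residual SD on the log2 scale, against a median of 0.45 over all genes. All but Tfpi varied more than the median gene. The genes whose values followed the 9 most closely over the 12 arrays, of those tested, were Cemip2 for Plau (r = 0.962), Ppp1r12c for Pros1 (0.937) and Mthfd2l for F2r (0.928), and Vegfc, a lymphatic growth factor, came next for F2r (0.903). They were Acad9 for Plaur (0.91), Atad3a for F3 (0.909), Rpusd3 for Tfpi (0.902) and Rnf183 for Procr (0.9). Likeness was lower for Thbd, with Cdk9 at 0.835, and for Plat, with Larp1b at 0.832. With 12 arrays and 10269 genes to choose from, such values are descriptions.

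The rest of the pathway was read from a list of 49 other genes of coagulation, fibrinolysis and platelet control. Of these 43 had a probe set, and 18 could be tested. Those without one were not analysed here. Of the 25 genes with a probe set that were not tested, 20 stayed under 100 on all 12 arrays, among them Tfpi2 (at most 24.4) and the liver-made fibrinogen chain gene Fga (at most 13.9). In each of the 3 comparisons 0 of 18 were called. At an unadjusted p under 0.05 the counts were 2 of 18 for tmTNF minus control, 0 of 18 for soluble TNF minus control and 4 of 18 between the exposures, against 7.56%, 12.7% and 19.9% of all genes. The median log2 fold changes were -0.12, -0.32 and 0.21.

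Genes without overlap between groups numbered 1 of 18 for tmTNF minus control, lower in tmTNF, where 3.17% of all genes did not overlap (0.984% lower and 2.19% higher). That gene was F5. For soluble TNF minus control there were 0 of 18 and 0 of the 8 above, against 8.11% (4.44% lower and 3.67% higher). For tmTNF minus soluble TNF there were 4 of 18, against 16.1% (5.86% lower and 10.3% higher). The 4 were S100a10 and F5, lower in tmTNF, and Ggcx and Lman1, higher in tmTNF. The mean over the 4 tested leukocyte markers separates these groups too, although each of these markers alone overlaps. Acta2, of the fibroblast and mural markers, separates them by itself, lower in tmTNF. The part of these markers was not tested. Lman1 encodes a cargo receptor that carries coagulation factors out of the endoplasmic reticulum.

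F5, the gene of clotting factor V, had the largest log2 difference of the 18 for tmTNF minus control. Its signals were 39.7, 28.8, 692.2 and 212.1 in controls, 5.5, 8.8, 2.9 and 3.7 in tmTNF cells, and 122.7, 25.2, 25.7 and 149.1 after soluble TNF. All tmTNF arrays were under 9, and 8 of 12 arrays were under 100. F5 passed the filter through exactly the other 4 arrays, and no tmTNF array is among them. A gene kept this way is favoured to be low in tmTNF, so its p and lack of overlap are descriptions. The log2 fold change for tmTNF minus control was -2.75 ± 0.83 with a limma p of 0.00619 and an adjusted p of 0.336. With tmTNF this dim, the size of that value depends on the pseudocount, and over 25 alternatives it ran from -4.31 to -1.24. Its 4 highest signals, 122.7 to 692.2, came from the 4 collagen-high arrays, 2 controls and 2 soluble TNF arrays. The other 8 arrays gave 2.9 to 39.7. Without the 4 collagen-high arrays the difference was -1.24 (adjusted p 0.64, limma). A smaller difference follows from leaving out its highest signals. The part of the collagen markers was not tested.

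Anxa2 and S100a10 encode the 2 subunits of a cell surface complex that binds plasminogen and Plat. S100a10 signals were 10529.6 to 18428 in controls, 5913 to 11471 in tmTNF cells and 12076 to 20726 after soluble TNF. All tmTNF arrays lay below all soluble TNF arrays, with a log2 difference of -0.88 ± 0.247 (limma p 0.004, adjusted p 0.0968). Against controls S100a10 in tmTNF cells differed by -0.73 ± 0.247 (limma p 0.0121, adjusted p 0.463). Anxa2 differed between the exposures by -0.60 ± 0.231 (limma p 0.0225, adjusted p 0.183). That value rests on its brightest probe set. With the mean of probe sets Anxa2 differed by -0.08 (adjusted p 0.918, limma) and S100a10 by -0.69 (adjusted p 0.139, limma). With array weights both passed, with adjusted p of 0.0143 for S100a10 and 0.047 for Anxa2 (limma). That fit called 713 genes higher and 463 lower of all 10269 between the exposures. With soluble TNF replicates 1 and 4 counted once the adjusted p was 0.226 and 0.318 (limma). Over 26 alternatives it ran from 0.0143 to 0.411 for S100a10 and from 0.047 to 0.918 for Anxa2.

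Ggcx encodes the vitamin K dependent carboxylase that protein S and several clotting factors need. Its signals were 436.6, 168.8, 404.8 and 200.1 in controls, 335.9, 382.2, 522.8 and 368 in tmTNF cells, and 192.1, 239.9, 160.8 and 245.2 after soluble TNF. The 2 exposures do not overlap, and controls lie in both ranges. The log2 difference was 0.89 ± 0.316 (limma p 0.0154, adjusted p 0.157). Vwf, the von Willebrand factor gene and an endothelial hallmark, was dim and uneven, with controls at 1612, 200.6, 41.6 and 54.9, tmTNF at 26, 61.9, 277.8 and 4.9, and soluble TNF at 3.1, 186.5, 93.6 and 17.5. Its fold changes, -1.54 ± 1.141 and -1.67 ± 1.141 against controls, had adjusted p of 0.863 and 0.565 (limma). Both rest largely on control replicate 1, without which they were -0.52 and -0.65 (adjusted p 0.91 and 0.881, limma).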

How the data were processed

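RNA from 12 samples was hybridised to Affymetrix mouse arrays. The deposited values are linear signal intensities, 1 per probe set and array, made by the authors with MAS5 per the submitters' processing notes. Its version is not given in the sources used here. Every array had a 2% trimmed mean of 1000, and no detection calls were used. Here the trimmed mean was set to 500 on every array, leaving out 64 control probe sets, log2(signal + 16) was taken, and genes with at least 4 arrays at 100 or more were kept, by their brightest probe set (10269 genes). This scale understates changes of dim genes. The 3 groups were fitted together in limma 3.58.1 (R 4.3.3, lmFit and eBayes with trend). Tests were two-sided, adjusted by Benjamini-Hochberg over all genes, with a threshold of 0.05. The fit was tested on simulated data, with changes planted in randomly drawn genes and independent normal errors of each gene's own spread. The simulation held no differences between samples that many genes share. It called 149, 146 and 146 genes, against 20, 4 and 125 in the data, and more calls ease the adjusted threshold. All tested members but Tfpi vary more than the median gene, so the shares below are not those of the members. A log2 change of 2 was recovered in 78% of genes for tmTNF minus control, 84% for soluble TNF minus control and 72% between the exposures, and a log2 change of 1 in 32%, 16% and 28%. Members, pathway and marker lists and alternatives were chosen with earlier results of these data known. Named genes were all members, a few listed pathway genes and any pathway gene with an unadjusted p under 0.05. F8, Gas6, Serpinb2, F2rl3, Lman1 and Fga were named after their values were seen. Replicates are numbered in accession order. Values after ± are SE of log2 fold changes. Alternatives were other scalings, pseudocounts, filters, probe set rules, variance models and sets of arrays.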

Additional observations from a re-analysis of the deposited data

Results flagged for a closer look

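The Plaur signal of tmTNF replicate 3 was far below the others of its group, 1198 against 2626 to 3015, a gap of 0.85 of the group's range on the log2(signal + 16) scale and more than Dixon's 95% limit for 4 samples. It was the 1 such value among 42 groups of 14 genes, and chance gives about 1 in 20 groups. Ggcx lay on opposite sides of the control mean in the 2 exposures, with every tmTNF array above it and every soluble TNF array below it. The difference between the exposures was 0.89 on the log2 scale, which did not pass (adjusted p 0.157, limma).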

How the results depend on the processing

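No paired analysis was possible because the replicate numbers follow accession order and pair no samples. Over 14 other settings, 12 fits that left out 1 array each and 15 values from other probe sets of Tfpi, F2r and Plau, 39 single-gene fold changes had 1023 values, of which 961 kept direction and side of the threshold, 58 changed sign, 4 newly passed and 0 ceased to pass. With array weights Tfpi passed between the exposures (1 of 8 genes), as did Anxa2, S100a10 and F5 (3 of 18). That fit called 713 genes higher and 463 lower of all 10269 in this comparison, against 98 and 27 in the main fit. Without the 3 arrays of lowest endothelial markers, which hold the 3 lowest F2rl3 signals, F2rl3 passed, 1 of 18 for soluble TNF minus control and 1 of 18 between the exposures. Of all 10269 genes, that fit called 8 higher and 9 lower in the former comparison and 111 higher and 43 lower in the latter. No other setting moved these counts from 0. F5 and Vwf were too dim for the filter at 250 and have no value there. Leaving out the 4 collagen-high arrays and averaging soluble TNF replicates 1 and 4 were added after seeing the data. Same-median scaling moved the median of all genes to -0.12 for tmTNF minus control and to -0.15 between the exposures, and the split of called genes in the latter from 98 higher and 27 lower to 67 and 172.

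All sign changes were of fold changes that were not called, and the cause was not tested. For tmTNF minus control, Tfpi became -0.061 with same-median scaling, -0.051 with the mean of probe sets, -0.009 without the 3 low endothelial arrays, -0.077 without the 4 collagen-high arrays, and -0.24 and -0.33 on its probe sets 1438530_at and 1452432_at. Plaur became -0.21 without the 3 arrays and Anxa2 0.13 without the 4. For soluble TNF minus control, Procr became 0.068 with same-median scaling and 0.27 with array weights, Plat 0.10 without the 4 arrays, Plau -0.48 without the 3 and -0.037 without the 4, and Anxa2 -0.19 with the mean of probe sets. For tmTNF minus soluble TNF, same-median scaling gave -0.17 for Thbd and -0.023 for Vwf, quantile scaling -0.008 for Vwf, and array weights -0.22 for Thbd and -0.064 for Procr. In that comparison the fit without the 3 arrays gave 0.83 for Pros1, -0.64 for Plat and 0.14 for Plau. The fit without the 4 gave 0.038 for Pros1, 0.73 for F2r, -0.61 for Plat, 0.13 for Plaur and -1.15 for Vwf. Averaging the soluble TNF pair gave 0.20 for F2r, -0.006 for Plat and -0.30 for Vwf. F2r was 0.011 with the mean of probe sets and 0.094 on its second probe set.

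Leaving out 1 array at a time called none of these genes. The log2 fold changes whose sign turned ranged as follows. For tmTNF minus control they were Anxa2 -0.31 to 0.10, Plau -1.39 to 0.20, Plaur -0.30 to 0.77 and Tfpi -0.10 to 0.22. For soluble TNF minus control they were Plau -0.48 to 1.11, Plaur -0.066 to 1.01, Procr -0.29 to 0.40 and S100a10 -0.032 to 0.31. Between the exposures they were F2r -0.46 to 0.58, Plat -0.16 to 0.81, Plaur -0.46 to 0.072, Procr -0.082 to 0.55, Pros1 -0.58 to 0.17, Thbd -0.21 to 0.35 and Vwf -0.59 to 0.70.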

Other observations

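Several other clotting genes varied widely between samples of a group, and their signals ran in part with the cell type markers. These genes were chosen after their values were seen, and the part of the markers was not tested. Serpinb2, which encodes an inhibitor of plasminogen activators, had signals of 502.8 to 3621 on the 4 collagen-high arrays and 1.3 to 54.6 on the other 8. Those 4 arrays are 2 controls and 2 soluble TNF samples, and among tmTNF samples Serpinb2 reached at most 54.6. F8, the factor VIII gene that endothelium expresses, was lower on those arrays with some overlap, at 37.4 to 88.5 on the 4 and 71.6 to 1613 on the other 8. Gas6, which encodes a relative of protein S, gave 88.2 to 131 on the same 4 arrays and 120.2 to 2109 on the rest, also with some overlap. After soluble TNF F8 was at most 202.5 on any array.

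F2rl3, the gene of the thrombin receptor PAR-4, gave 64.6 to 79.5 on the 3 arrays with the lowest endothelial marker mean and 101.6 to 1665 on the other 9. Among those 9, the signals were 1047, 1381 and 603.4 in controls, 1665 and 1595 in tmTNF cells and 101.6 to 186.8 after soluble TNF. Fitted on those 9 arrays, F2rl3 was lower after soluble TNF than in controls (log2 -2.57 ± 0.314, adjusted p 0.0233, limma) and higher in tmTNF than in soluble TNF cells (log2 3.33 ± 0.356, adjusted p 0.0131, limma). That fit called 8 genes higher and 9 lower of all 10269 in the former comparison, and 111 and 43 in the latter. It leaves out the 3 lowest F2rl3 signals, all from controls and tmTNF cells. Higher means and less spread in those 2 groups follow from that choice, so these adjusted p are descriptions. With all 12 arrays neither passed (log2 -1.71 ± 1.088, adjusted p 0.533, and 1.22 ± 1.088, adjusted p 0.561, limma). F2r, the gene of the thrombin receptor PAR-1, was not called in either fit.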
